A study of Homo sapiens with 6 samples.

Results

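GPNMB, a type I transmembrane glycoprotein of melanosomes, lysosomes and the cell surface, was examined together with lysosomal hydrolases, lysosomal membrane proteins, subunits of the proton pump and the MiT/TFE transcription factors in gastric cancer cells with a knockdown of ACAT2. These 42 genes were taken by symbol from a table of 58735 genes. All 42 were in the table, and 37 of them were tested, since they reached a mean of at least 1 FPKM (fragments per kilobase of gene, scaled to the depth of the library) in either group, as did 13832 genes in all. GPNMB was put on the list with its rise in these libraries already known, so counts are also given without it. The other members were chosen with earlier results of these data known as well. Counts without GPNMB are therefore not independent of these data either.

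The study asked which transcripts depend on ACAT2, the cytosolic acetyl-CoA acetyltransferase that joins acetyl-CoA units at the entry of the mevalonate pathway, by RNA sequencing of HGC-27, an established line of undifferentiated human gastric carcinoma. Both groups were labelled wild type in genotype and were grown in RPMI 1640 with 10% serum. The shACAT2 group (3 libraries) received the vector pSIH-H1-Puro with a short hairpin RNA against ACAT2, and the shNC group (3 libraries) received the control vector that the labels call pSIH-H1-Puro-shNC, which the study's methods describe as empty. Cells were exposed to the vector for 24 h and then selected in puromycin for 7 days, so both groups were drug-selected populations at 1 time point, and which hairpin against ACAT2 was used is not given in the sources used here.

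Lysosomes break down proteins, glycans and lipids with acid hydrolases, which need the low pH that the vacuolar proton pump (V-ATPase) maintains. TFEB, TFE3 and MITF are related basic helix-loop-helix transcription factors that bind E-box letters in the promoters of many lysosomal genes, and mTORC1 at the lysosomal surface keeps TFEB and TFE3 in the cytoplasm by phosphorylation, so that their activity is set largely after translation. GPNMB is a known target of MITF and TFE3 and is known to rise in cells with lysosomal stress, above all in macrophages and pigment cells.

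The binding letters of these factors are shown first, and each form of them was found in a minority of the members. Of the 42 members, 30 had a window from 250 bases before to 50 bases after the transcription start in the RefSeq table of build GRCh38.p14. The 8 letters TCACGTGA, which read the same on both strands and hold the E-box CACGTG, were in the windows of 6 of the 30 members (20%), against 1.18% of the 27305 genes in the table. The 6 were LAMP1, CTSA, GAA, MCOLN1, CLN3 and ATP6V0D1. Upstream stretches of 30 bases are shown for 5 of them, 5′ to 3′ on the strand of the gene, with the 8 letters in capitals:

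LAMP1, chr13:113297199-113297228, plus strand: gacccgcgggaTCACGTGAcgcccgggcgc
MCOLN1, chr19:7522571-7522600, plus strand: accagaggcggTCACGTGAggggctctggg
CTSA, chr20:45891298-45891327, plus strand: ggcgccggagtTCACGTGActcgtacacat
GAA, chr17:80101493-80101522, plus strand: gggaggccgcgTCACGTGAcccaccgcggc
ATP6V0D1, chr16:67481199-67481228, minus strand: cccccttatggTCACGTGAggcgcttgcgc

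GPNMB lacked TCACGTGA in its window and instead held TCATGTG, the letters of the M-box that MITF is known to bind, at 2 places on the strand opposite to the gene, which read CACATGA on the strand of the gene. Searched on both strands, the M-box letters TCATGTG were in 4 of the 30 members (13.3%; GPNMB, CTSA, TPP1 and PPT1), against 3.59% of all genes in the table. The shorter CATGTG inside it was in the same 4 members (13.3%) and in 13.4% of all genes, close to the same share. The 250 bases before the RefSeq start of GPNMB, at chr7:23246525-23246774 on the plus strand and inside the gene interval of the deposited table, are shown with the 2 CACATG matches in capitals, whose first bases lie at positions -123 and -62 from the start:

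GPNMB upstream: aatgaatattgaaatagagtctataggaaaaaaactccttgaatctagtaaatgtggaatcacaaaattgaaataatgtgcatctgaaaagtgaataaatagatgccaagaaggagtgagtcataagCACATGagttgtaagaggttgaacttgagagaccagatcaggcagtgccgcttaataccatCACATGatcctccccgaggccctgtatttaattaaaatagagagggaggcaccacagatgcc

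The libraries held between 14086416 and 16067486 fragments on genes. The library shACAT2-3 stood apart in having 7477 genes with a fragment in it alone, against 416 to 657 in the others, and shNC-2 and shNC-3 were closer to each other (chi-square per gene 1.75) than the other pairs of a group (13.7 to 53.2). The label of the knockdown held: ACAT2 was at 14.2, 11.7 and 12.7 FPKM in shNC and at 6.19, 5.46 and 6.05 FPKM in shACAT2, a log2 fold change of -1.01 ± 0.10 (SE; limma adjusted p = 0.0059), although without shNC-3 its adjusted p was 0.0512 and 52.3% of its exon bases are shared with genes of the opposite strand, SOD2 among them. Over all genes tested, 456 were higher and 250 lower in shACAT2 (64.6% of the calls higher), and with upper-quartile scaling 436 were higher and 366 lower (54.4% higher). Markers of the labelled tissue were absent or low: none of 11 gastric mucosa genes reached 1 FPKM in any library, with GKN1, PGC and TFF1 at 0 fragments throughout, and of 8 epithelial genes 2 reached it (CDH1 and CLDN7), while KRT18 had no fragment in 5 of the 6 libraries. The epithelial sum was 2.02 to 2.38 FPKM in shNC and 2.80 to 3.10 FPKM in shACAT2, without overlap, with CDH1 at 0.222, 0.120 and 0.141 FPKM in shNC and at 0.608, 0.828 and 1.15 FPKM in shACAT2.

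GPNMB rose in shACAT2 to 3.18 times its level in shNC, the largest change among the 37 members tested. In the shNC libraries it was at 23.0, 20.6 and 21.8 FPKM, and in the shACAT2 libraries at 71.0, 64.9 and 72.1 FPKM. The lowest shACAT2 library was far above the highest shNC library, and replicates within a group lay close together. The mean went from 21.8 ± 1.19 to 69.3 ± 3.90 FPKM (SD, n = 3 libraries each). On the log2(FPKM + 1) scale the change was 1.62 ± 0.10 (SE), with a 95% interval from 1.38 to 1.86 and a limma adjusted p of 0.0020, or 0.0080 with replicate number as a block. Between 2019 and 6534 fragments per library lay behind these values, and no other gene shared its exon bases. Leaving out any 1 library kept the change between 1.59 and 1.67, with adjusted p-values from 0.0048 to 0.0308. GPNMB (ENSG00000136235) lies at chr7:23235967-23275108 on the plus strand of hg38. In bulk libraries such as these, more RNA per cell and more cells with the RNA cannot be told apart.

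Most marker genes of the cells best known for GPNMB stayed under 1 FPKM. Of 13 macrophage genes none reached 1 FPKM in any library, with no fragment of CD163 or LYZ outside shACAT2-3, and their summed level was 0.740 to 1.56 FPKM in shNC and 1.52 to 3.25 FPKM in shACAT2. Of 9 melanocyte genes, DCT and PAX3 reached 1 FPKM, TYR had no fragment outside shACAT2-3, and the sums overlapped (3.25 to 3.51 and 2.78 to 3.64 FPKM). Of 7 osteoclast genes NFATC1 alone reached 1 FPKM (sums 3.01 to 3.91 and 3.58 to 4.42 FPKM). No endothelial gene of 6 did so (sums 0.0297 to 0.180 and 0.124 to 0.685 FPKM). Genes that mark fibroblasts were all expressed: 8 of 8 reached 1 FPKM, and their sum, led by COL3A1, was 335 to 375 FPKM in shNC and 483 to 588 FPKM in shACAT2, without overlap. The fibroblast sum moved with GPNMB and with the lysosomal genes below. The low epithelial sum did so through CDH1 and not through CLDN7. The part of these 2 sums in those results was not tested.

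**Figure D1:**
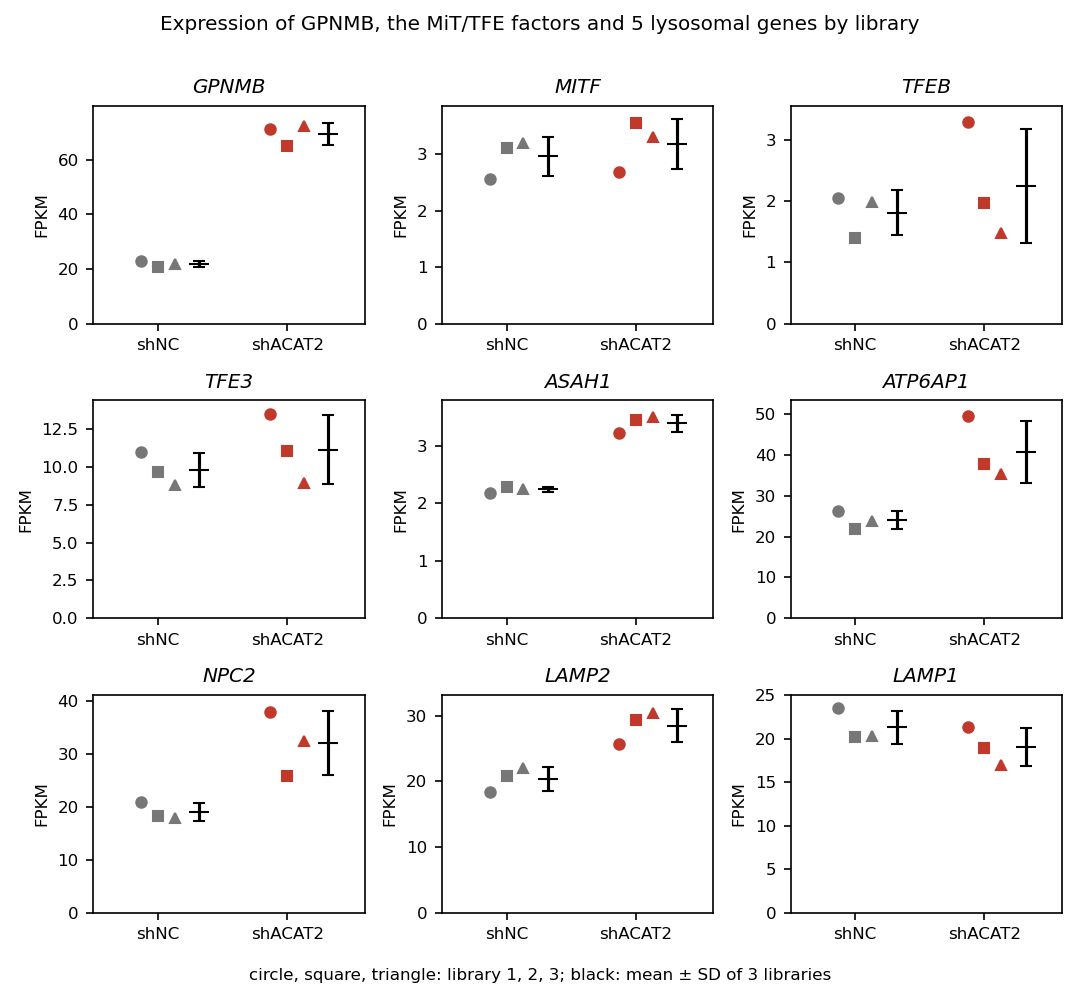
FPKM (vertical axes, starting at 0) of 9 members in each of the 3 shNC and 3 shACAT2 libraries, with the mean and SD of each group in black. GPNMB is separated by the widest gap, ASAH1, ATP6AP1, NPC2 and LAMP2 are higher in shACAT2 without overlap, and LAMP1 and the 3 MiT/TFE factors overlap between the groups.

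Beside GPNMB, most lysosomal members were modestly higher in shACAT2 and few passed the test. Of the 37 members tested, 3 rose at a limma adjusted p below 0.05 (GPNMB, ASAH1 and ATP6AP1), which is 8.11%, against 5.1% of all genes called in either direction and 3.3% called higher. None fell (1 at an unadjusted p below 0.05, ARSB, and 0 by limma-voom on the fragments), against 1.81% of all genes. Without GPNMB, 2 of 36 rose (5.56%), near the 5.1% of all genes called in either direction and not far from the 3.3% called higher. With replicate number as a block, 13 members rose (35.1%) and none fell, against 7.67% of all genes called higher and 4.81% called lower, and without GPNMB 12 of 36 did (33.3%). These were GPNMB, LAMP2, NEU1, NPC2, ASAH1, SMPD1, PSAP, ATP6AP1, ATP6V1H, ATP6V0D1, CTSL, CTSB and CTSC. At an unadjusted p below 0.05 without the block, 20 members were higher (19 without GPNMB). Of all 13832 genes, 1768 were higher and 1485 lower at that p. By limma-voom 7 members were called higher (6 without GPNMB), beside 617 of all genes called higher and 399 called lower.

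The direction was shared by more members than the calls show. The fitted change was above 0 for 29 of the 37 members (78.4%), against 52.3% of all genes tested, and its median was 0.29 on the log2 scale against 0.016 over all genes. Without GPNMB, 28 of 36 were above 0 (77.8%), the median was still 0.29 and the largest change 0.73. The groups did not overlap for 19 members that were higher in shACAT2 (51.4%, against 16.2% of all genes) and for 2 that were lower, IDS and ARSB (5.41%, against 14.5%), and without GPNMB 18 of 36 were higher without overlap (50%). Within the same-numbered pairs of libraries the members' median difference was 0.36, 0.27 and 0.24, beside 0.05, 0.03 and -0.02 over all genes. In all 3 pairs 26 members were higher (70.3%, against 30.1% of all genes) and 4 were lower (10.8%, against 27.1%), and without GPNMB 25 of 36 were higher (69.4%). The pairs use the same libraries as the counts above and are no separate evidence. For numbers 2 and 3 the libraries' deviations do not show a pairing. At a log2 fold change above 1 with an unadjusted p below 0.05, a threshold the study used, only GPNMB of the members was called, while 0.983% of all genes were called higher.

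**Figure D2:**
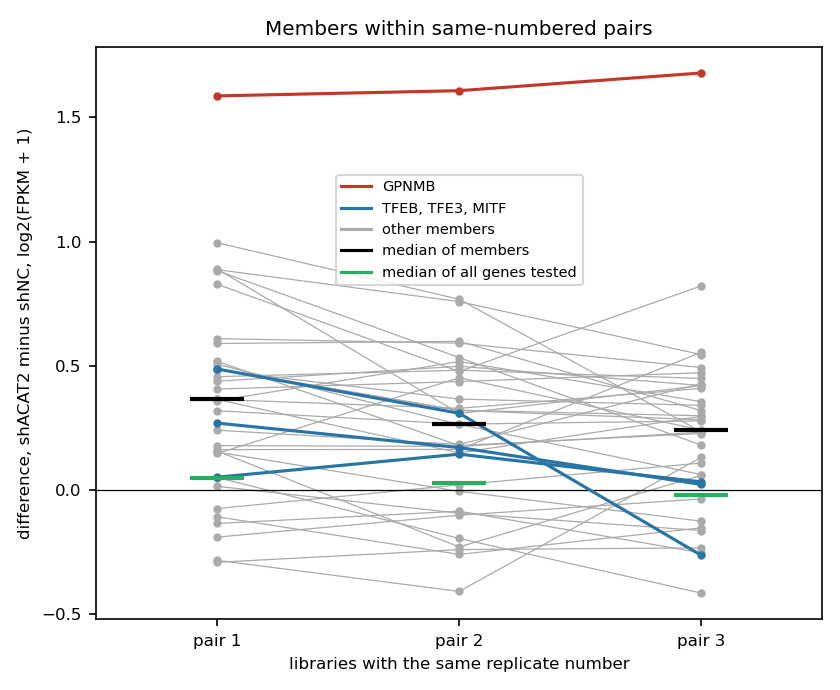
Difference between the shACAT2 and the shNC library of the same replicate number, in log2(FPKM + 1), for each of the 37 members tested (lines), with the median of the members in black and of all genes tested in green. GPNMB lies between 1.59 and 1.68 in the 3 pairs, apart from all other members, and the members' median is above that of all genes in each pair.

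The MiT/TFE factors themselves were not called. TFEB was at 2.06, 1.40 and 1.98 FPKM in shNC and at 3.29, 1.97 and 1.49 FPKM in shACAT2. Its groups overlapped, and shACAT2-1 alone stood higher than every shNC library. TFE3, the factor with the highest level of the 3, was at 11.0, 9.71 and 8.79 FPKM in shNC and at 13.5, 11.1 and 8.95 FPKM in shACAT2, also with overlap. MITF, which drives the pigment and osteoclast programmes, was at 2.57, 3.12 and 3.21 FPKM in shNC and at 2.70, 3.55 and 3.30 FPKM in shACAT2. The log2 fold changes were 0.18 ± 0.22 for TFEB (adjusted p = 0.669), 0.15 ± 0.16 for TFE3 (0.605) and 0.08 ± 0.12 for MITF (0.75), with 95% intervals from -0.33 to 0.69, from -0.22 to 0.53 and from -0.21 to 0.36. None of the 3 had an unadjusted p below 0.05, none was called by limma-voom or with the block, and without shACAT2-1 the change of TFEB was -0.04. These are transcript levels, and neither the protein nor its place in the cell was measured.

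**Figure D3:**
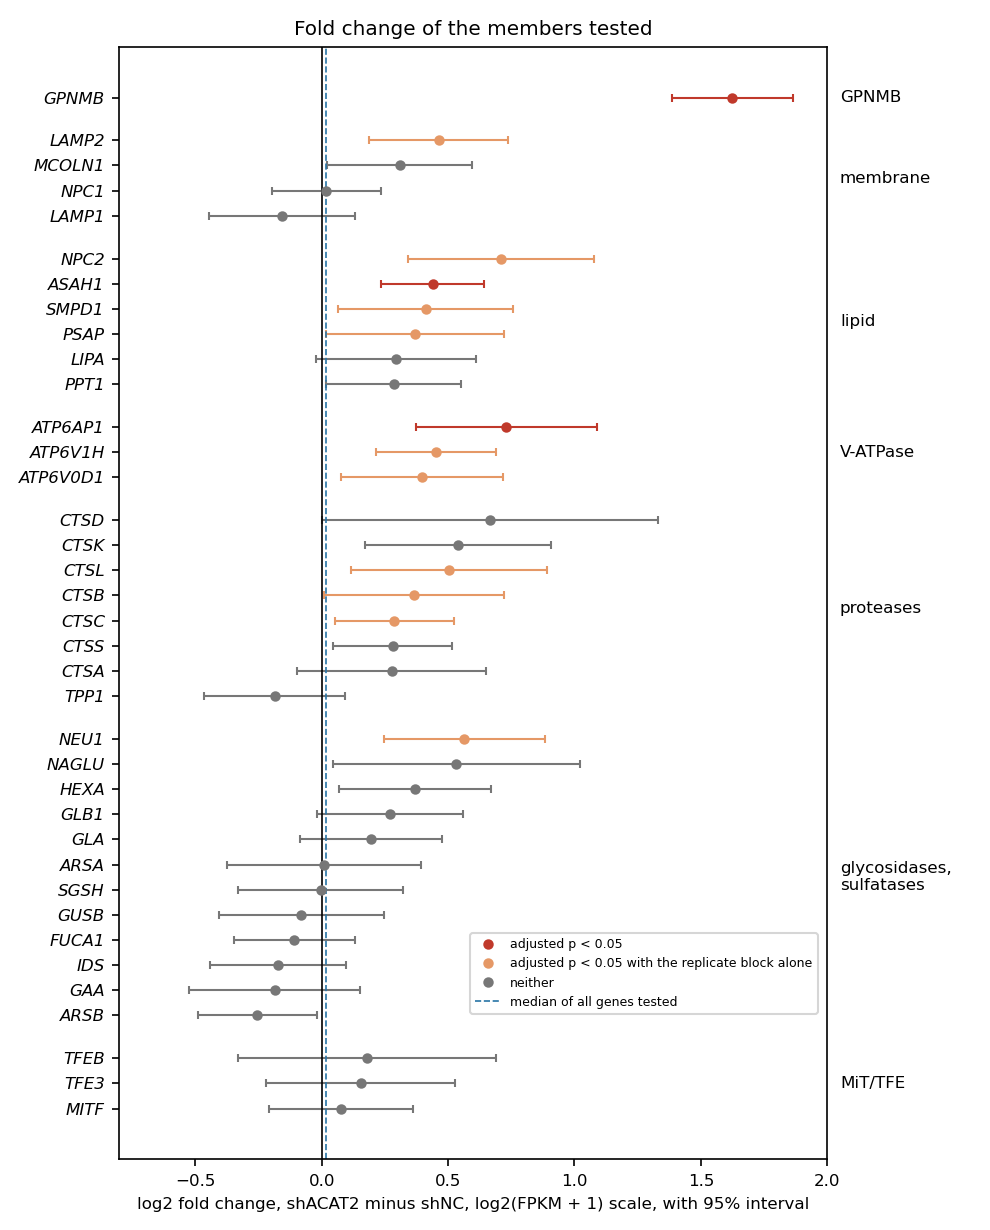
Log2 fold change (shACAT2 minus shNC, on the log2(FPKM + 1) scale) of the 37 members tested, with its 95% interval, by role. GPNMB is at 1.62, lipid and V-ATPase members are all above 0, and the glycosidases and sulfatases fall on both sides of 0; red marks the 3 calls and orange the 10 more made with the replicate block.

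All 6 members that handle lipids were higher in shACAT2, as were 52.3% of all genes tested, with a median log2 fold change of 0.39. Of these members 1 passed the test, or 4 with the replicate block, against 3.3% and 7.67% of all genes called higher. ASAH1, the acid ceramidase, was at 2.18, 2.28 and 2.25 FPKM in shNC and at 3.22, 3.44 and 3.51 FPKM in shACAT2. Its replicates were tight and its groups did not overlap. It rose from 2.24 ± 0.0498 to 3.39 ± 0.150 FPKM (SD, n = 3), by 0.44 ± 0.09 on the log2 scale (adjusted p = 0.0375, and 0.0330 with the block). Its call was lost with upper-quartile (0.0785) and library-size scaling (0.0640) and when any library but shACAT2-1 was left out (adjusted p of at most 0.172).

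NPC2, the soluble lysosomal protein that hands cholesterol to NPC1, was at 20.9, 18.2 and 17.9 FPKM in shNC and at 38.0, 25.8 and 32.4 FPKM in shACAT2. Every shACAT2 library was above every shNC library, with a change of 0.71 ± 0.16 (adjusted p = 0.0506, and 0.0265 with the block). NPC1, its membrane partner, had 5.03 ± 0.229 and 5.11 ± 0.427 FPKM, with a change of 0.02 ± 0.09 that was -0.03 with upper-quartile and -0.02 with library-size scaling. SMPD1, the acid sphingomyelinase, had 4.66 ± 0.907 and 6.50 ± 0.936 FPKM and rose with the block (0.41, adjusted p = 0.0345, against 0.154 without it). PSAP, the precursor of the saposins that present sphingolipids to their hydrolases, had the highest level of all members, at 190 ± 17.2 and 248 ± 40.9 FPKM, and rose with the block (0.37, adjusted p = 0.0498, against 0.193 without it). LIPA, the acid lipase that frees cholesterol from its esters, had 12.4 ± 1.36 and 15.5 ± 2.18 FPKM, and PPT1, a palmitoyl thioesterase that shares 23.4% of its exon bases with CAP1, had 48.1 ± 3.24 and 58.8 ± 4.79 FPKM. Neither was called in either fit, with changes of 0.29 and 0.28.

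The 3 V-ATPase members were higher in every shACAT2 library than in any shNC library, as were 16.2% of all genes tested. Their median log2 fold change was 0.45. ATP6AP1, an accessory subunit needed for assembly of the pump, was at 26.3, 21.9 and 23.8 FPKM in shNC and at 49.4, 37.7 and 35.2 FPKM in shACAT2. It was highest in shACAT2-1, and the groups were clearly apart. ATP6AP1 rose from 24.0 ± 2.20 to 40.8 ± 7.60 FPKM, by 0.73 ± 0.15 (adjusted p = 0.0431, and 0.0236 with the block). The call was lost without any 1 of the shNC libraries (adjusted p from 0.106 to 0.187) or without shACAT2-2 (0.116). ATP6V1H, a regulatory subunit of the cytosolic V1 part, had 5.86 ± 0.552 and 8.38 ± 0.518 FPKM (0.45 ± 0.10, adjusted p = 0.0511, and 0.0255 with the block). ATP6V0D1, of the membrane V0 part, had 7.25 ± 0.803 and 9.91 ± 1.64 FPKM (0.40 ± 0.13, adjusted p = 0.140, and 0.0337 with the block).

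Among the 4 lysosomal membrane members tested, the 2 with the highest levels differed in the sign of their change, and neither passed the test without the block. LAMP2, which also serves chaperone-mediated autophagy, was at 18.4, 20.8 and 22.0 FPKM in shNC and at 25.6, 29.4 and 30.4 FPKM in shACAT2. Its groups did not overlap. The change was 0.46 ± 0.12 (adjusted p = 0.0699, and 0.0251 with the block). LAMP1, the usual marker of the organelle, was at 23.5, 20.1 and 20.3 FPKM in shNC and at 21.3, 18.9 and 16.9 FPKM in shACAT2, with overlap and a change of -0.16 ± 0.12 (adjusted p = 0.487; 95% interval from -0.44 to 0.13). MCOLN1, the calcium channel TRPML1, had 5.63 ± 0.343 and 7.26 ± 1.18 FPKM, with no overlap and a change of 0.31 ± 0.12 that was called in neither fit (adjusted p = 0.185). Of the 4 membrane members tested none passed the test without the block, 2 had an unadjusted p below 0.05, and limma-voom called 1.

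Of the 8 proteases tested 7 were higher in shACAT2 (median 0.33), none passed the limma test, 6 had an unadjusted p below 0.05, limma-voom called 0, and 3 rose with the replicate block. At that unadjusted p, 1768 of all 13832 genes were higher, and with the block 7.67% of all genes were called higher. CTSL, a cysteine endopeptidase, had 22.3 ± 2.68 and 32.3 ± 6.31 FPKM (0.50 ± 0.16, adjusted p = 0.129, and 0.0358 with the block). CTSB, another of that family, had 15.8 ± 1.66 and 20.7 ± 3.89 FPKM (0.36 ± 0.15, adjusted p = 0.203, and 0.0458 with the block). CTSC, which trims dipeptides and activates other proteases, had 9.59 ± 0.582 and 11.9 ± 0.970 FPKM (0.29 ± 0.10, adjusted p = 0.143, and 0.0484 with the block). The blocked values of CTSB, CTSC and PSAP lay just under the threshold.

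CTSK, the collagen-degrading cathepsin of osteoclasts, was low but had no overlap between the groups, at 3.16 ± 0.409 and 5.10 ± 1.13 FPKM (0.54 ± 0.16, adjusted p = 0.0998). CTSD, the main aspartic protease, was at 16.9, 12.7 and 12.7 FPKM in shNC and at 34.7, 22.3 and 15.2 FPKM in shACAT2. The groups overlapped and the shACAT2 libraries spread widely, so that its change of 0.67 had an SE of 0.28 (adjusted p = 0.212), and 52.7% of its exon bases are shared with 2 other annotated genes. CTSS had 2.54 ± 0.306 and 3.29 ± 0.101 FPKM, and CTSA, the protective protein of NEU1 and GLB1, had 10.1 ± 0.682 and 12.6 ± 2.90 FPKM, both with a change of 0.28. CTSA shares 28.5% of its exon bases with other genes, PLTP among them. TPP1, a tripeptidyl peptidase, had the one negative change, at 5.11 ± 0.439 and 4.39 ± 0.682 FPKM (-0.19 ± 0.12, adjusted p = 0.392).

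The glycosidases and sulfatases showed no shared direction. Of 12 tested, 6 were higher and 6 lower in shACAT2, with a median of 0.002 on the log2 scale. None passed the limma test (3 higher and 1 lower at an unadjusted p below 0.05, and 1 by limma-voom), and 1 rose with the block. That gene was NEU1, the lysosomal sialidase, with 6.97 ± 0.894 and 10.8 ± 1.64 FPKM, no overlap, and a change of 0.56 ± 0.13 (adjusted p = 0.0623, and 0.0201 with the block). NAGLU, an enzyme of heparan sulfate breakdown, had 15.5 ± 0.836 and 23.6 ± 7.15 FPKM (0.53 ± 0.21, adjusted p = 0.180), and HEXA, the alpha subunit of hexosaminidase, had 1.45 ± 0.232 and 2.16 ± 0.299 FPKM (0.37 ± 0.13, adjusted p = 0.144). These 3 were higher without overlap between the groups, as were 16.2% of all genes tested.

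GLB1, the lysosomal beta-galactosidase, had 9.24 ± 0.586 and 11.4 ± 1.62 FPKM, and GLA, the alpha-galactosidase, had 15.6 ± 1.68 and 18.1 ± 1.73 FPKM, with changes of 0.27 and 0.20. On the other side, ARSB, a sulfatase of dermatan sulfate, had 2.24 ± 0.151 and 1.71 ± 0.0967 FPKM (-0.25 ± 0.10, adjusted p = 0.185), and IDS, another sulfatase that has a pseudogene copy, had 1.41 ± 0.0775 and 1.14 ± 0.0695 FPKM (-0.17 ± 0.11, adjusted p = 0.408). Both were lower in every shACAT2 library than in any shNC library, as were 14.5% of all genes tested. GAA, the acid alpha-glucosidase, had 21.0 ± 0.625 and 18.6 ± 3.61 FPKM (-0.19), GUSB, the beta-glucuronidase with many pseudogene copies, had 24.0 ± 2.25 and 22.8 ± 3.60 FPKM (-0.08), and FUCA1, the alpha-fucosidase, had 1.93 ± 0.0865 and 1.71 ± 0.123 FPKM (-0.11). SGSH, with 2.09 ± 0.261 and 2.09 ± 0.444 FPKM, and ARSA, with 6.41 ± 0.815 and 6.53 ± 1.56 FPKM, had no stable sign: ARSA was at 0.01 and turned to -0.04 with upper-quartile and with library-size scaling, and SGSH turned from -0.00 to between -0.12 and 0.07 as single libraries were left out.

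The other 5 members had a mean under 1 FPKM in both groups and were not tested. CLN3, a membrane protein whose exon bases are shared to 30.9% with 2 other genes, was at 0.0862, 0.0688 and 0.10 FPKM in shNC and at 0.120, 0.0977 and 0.108 FPKM in shACAT2. CTSH was at 0.0887, 0.115 and 0.0591 against 0.101, 0.184 and 0.271 FPKM. CTSZ was at 0.128, 0.121 and 0.285 against 0.420, 0.118 and 0.327 FPKM. CTSF had 0, 2 and 0 fragments in shNC and 10, 3 and 20 in shACAT2, the highest being in shACAT2-3, which also held the most genes seen in 1 library alone. MANBA, a beta-mannosidase with 96 to 171 fragments per library over a gene length of 11743 bases, was at 0.762, 0.762 and 0.845 FPKM in shNC and at 0.538, 0.789 and 0.749 FPKM in shACAT2.

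The promoter letters shown above were also set beside the changes within the list. TCACGTGA was in 1 of 8 members called with the block that had a window (12.5%, ATP6V0D1) and in 4 of the 18 other members tested that had one (22.2%). The log2 fold changes of the 5 tested members that held it were 0.40 for ATP6V0D1, 0.31 for MCOLN1, 0.28 for CTSA, -0.16 for LAMP1 and -0.19 for GAA. The shorter CACGTG was in 10 of the 30 members (33.3%), against 8.78% of all genes, and NEU1 and ATP6V0D1 were the holders among those called with the block. A match is a description of letters in a window, not a site in use.

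**Figure D4:**
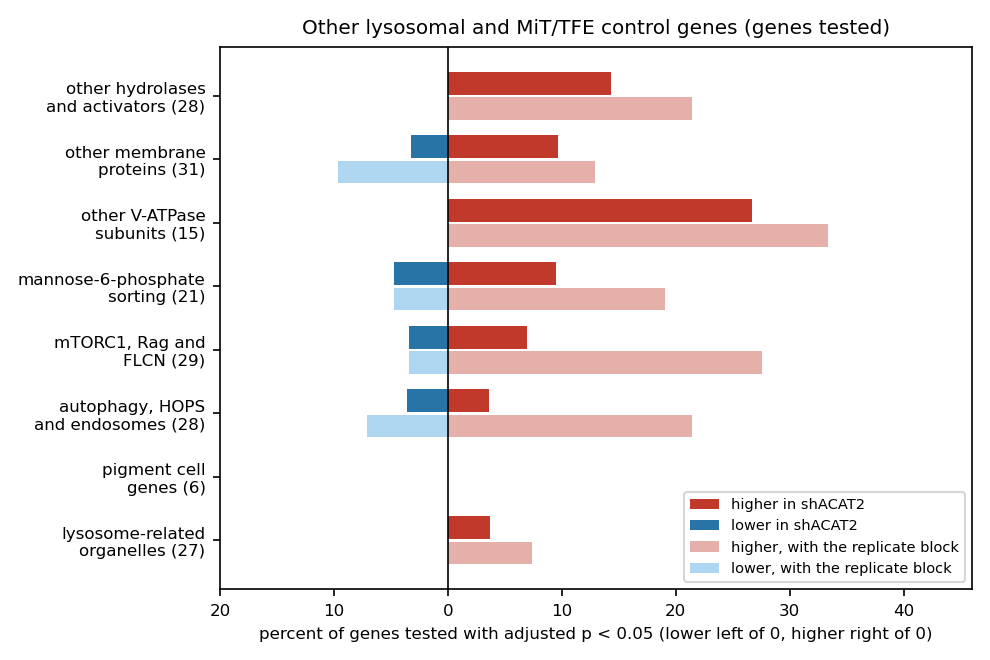
Percent of the tested genes of 8 other lists with an adjusted p below 0.05, higher (right of 0) or lower (left of 0) in shACAT2, without and with the replicate block; the number of genes tested is in parentheses. Other V-ATPase subunits have the largest share called higher (26.7%), and no gene of the list named pigment cell genes is called.

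The wider lysosomal and MiT/TFE control genes, 225 in 8 lists, were examined in the same fit. Of 184 tested, 124 were higher in shACAT2 (67.4%, median 0.12), 17 rose and 4 fell (11.4% called), and 35 rose and 7 fell with the block. Over all genes tested 52.3% were higher, 5.1% were called, and with the block 7.67% were called higher and 4.81% lower. Leaving out shNC-2 or shNC-3 left 1 called, RRAGC, and without shNC-1 or shACAT2-2 there were 4 and 2. Of the 15 other V-ATPase subunits tested 4 rose: ATP6V0E1, from 49.8 ± 3.29 to 86.7 ± 11.3 FPKM (0.78, adjusted p = 0.0245), ATP6V1B2 (0.57), ATP6V1D (0.51) and ATP6AP2 (0.53), and none fell (1 at an unadjusted p below 0.05, and 0 by limma-voom). ATP6AP2, the (pro)renin receptor and partner of ATP6AP1, went from 3.51 ± 0.103 to 5.51 ± 0.152 FPKM (adjusted p = 0.0173). Of 28 other hydrolases and their activators 4 rose and none fell (0 at an unadjusted p below 0.05, and 0 by limma-voom). Among them were AGA, which cleaves asparagine-linked sugars (0.83, adjusted p = 0.0107), LGMN, the asparaginyl protease that matures cathepsins (0.64), and SCPEP1 (0.56).

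Among 31 other membrane proteins 3 rose and 1 fell. TMEM59 (0.71), SIDT2 (0.56) and SCARB2, the receptor that carries glucocerebrosidase to lysosomes (0.49), were higher. MCOLN2, a channel of the same family as MCOLN1, fell from 3.66 ± 0.173 to 1.75 ± 0.116 FPKM (-0.76, adjusted p = 0.0096), and MCOLN3, the remaining one, fell with the block (-0.69, adjusted p = 0.0287, against 0.0638 without it). Of 21 genes of mannose-6-phosphate sorting and transport, TMED2 (0.56) and AP1S2 (0.57) rose and GGA3, an adaptor of the sorting receptors, fell (-0.53).

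The strongest change among the 184 was in a Rag GTPase, which recruits mTORC1 and the MiT/TFE factors to the lysosome. RRAGC was at 2.45, 2.23 and 2.76 FPKM in shNC and at 5.84, 5.71 and 6.09 FPKM in shACAT2. The groups were far apart, with a change of 0.98 ± 0.09 (adjusted p = 0.0048, and at most 0.0407 with any 1 library left out). RRAGD, its close relative and a known MiT/TFE target, rose by 0.67 (adjusted p = 0.0294), and RPTOR, the mTORC1 subunit that binds the Rag GTPases, fell by 0.44 (adjusted p = 0.0376). These were the 3 calls of 29 tested in that list, and 8 rose and 1 fell with the block, among them FLCN, the activator of RRAGC and RRAGD (0.43, adjusted p = 0.0260, against 0.0928 without it).

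Of 28 autophagy, HOPS and endosome genes, WIPI1, an early autophagosome protein, rose from 1.30 ± 0.203 to 3.05 ± 0.372 FPKM (0.81, adjusted p = 0.0169), and VPS41, a HOPS subunit, fell from 16.6 ± 1.43 to 10.3 ± 1.67 FPKM (-0.65, adjusted p = 0.0465). These calls were 7.14% of that list. Of 27 genes of lysosome-related organelles AP3S1 alone rose (0.55, adjusted p = 0.0358), which is 3.7%. Both shares are near the 5.1% called over all genes. A list of 20 genes linked to pigment cells or to MITF was mixed and not one of MITF pigment targets alone. Of these, 14 were under the filter. None of the 6 tested (DCT, OCA2, RAB27A, MC1R, CDK2 and PAX3) was called (0 at an unadjusted p below 0.05, and 0 by limma-voom). Their median change was -0.02.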

How the data were processed

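Total RNA of HGC-27 cells was sequenced in 6 libraries, whose groups (shACAT2 and shNC, 3 each) were taken from the sample titles. The authors deposited FPKM values per gene, made with HISAT2 2.0.5 and featureCounts 1.5.0-p3 on hg38 by the submitters' processing notes; the strand setting is not given in the sources used here. Fragments read back from FPKM and gene length were whole for 100% of values (within 0.05). The authors' FPKM denominator was 0.957 to 1.07 times the fragments on genes. limma 3.58.1 (R 4.3.3, with a trend) was fitted to log2(FPKM + 1) for the 13832 genes whose mean reached 1 FPKM in shACAT2 or in shNC, with Benjamini-Hochberg adjustment over all of them, after a check on simulated data. That check recovered 16% of 50 simulated log2 changes of 0.5, 72% of 50 at 1 and 88% of 50 at 1.5. Its simulated libraries held no replicate effect. Fold changes on this scale understate those of low genes. Nothing states that libraries came from separate cultures beyond the word biological replicates, so p-values measure the spread between these libraries. An exact permutation test of 3 against 3 cannot go below 0.1. Tables were handled in Python 3.11.15 with pandas 2.3.3, and exon overlap was taken from GENCODE release 29. By it, IDS, HEXA, TPP1, NAGLU, MANBA and GLB1 share 17.4%, 16.3%, 14.4%, 12.6%, 11.3% and 10.0% of their exon bases with other genes. All 42 members are named with their values, per library for GPNMB, the MiT/TFE factors, LAMP1, LAMP2, called and untested members, and the called genes of each other list, apart from 1 that is not reported here. Library values of NPC2, CTSD and RRAGC were added after their values were seen, as were the names of further genes called with the block. The members and lists were chosen with earlier results of these data known. Libraries with the same number deviated together from their group means (correlations 0.445, 0.126 and 0.171). The main fit was unpaired, and replicate number as a block was an alternative. Since shNC-2 with shACAT2-3 (0.198) and shNC-3 with shACAT2-2 (0.141) deviated together as well, these correlations do not show a pairing for numbers 2 and 3. Blocked values are given where they change the call of a member. Among the other genes whose call they change, they are given for MCOLN3 and FLCN alone. Alternatives were a fit without the filter or with a minimum of 10 fragments per library, 0.1 as the pseudocount, 2 other scalings, the replicate block, each library left out, shNC-2 and shNC-3 averaged, limma-voom on 2 gene sets, and 2 other thresholds.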

Additional observations from a re-analysis of the deposited data

How the results depend on the processing

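GPNMB was called under all 15 alternatives, with log2 fold changes from 1.57 to 1.67. The members' median change stayed between 0.23 and 0.35, and 33 of the 37 members kept their sign throughout. The count of members called was less stable. Against 3 in the report, all of them higher, it was 1 without the filter, 5 with a minimum of 10 fragments per library, 1 with the libraries shNC-2 and shNC-3 merged into their mean, 7 and 6 with limma-voom on the same and on the wider set of genes, and 1 to 4 as each library was left out; it was 1 without shACAT2-2 and 1 without any of the shNC libraries. With the replicate block 13 were called. At an unadjusted p below 0.05, 21 were called, 20 higher and 1 lower, and at an absolute log2 fold change above 1 with that p, 1. Of all 13832 genes, 1768 were higher and 1485 lower at that unadjusted p.

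Of the other lysosomal and control genes, 21 were called in the report, 17 higher and 4 lower. The counts were 5, 4 and 1 without the filter, 42, 35 and 7 with the replicate block, and 1, 1 and 0 with that merged shNC pair. As each library was left out, 1 to 24 were called, 1 to 20 higher and 0 to 4 lower. Signs turned for 4 members near 0. NPC1 was at -0.0298 with upper-quartile and -0.0249 with library-size scaling, and between -0.0384 and 0.0489 with a library left out. ARSA was at -0.0447 and -0.0389 with these scalings, at -0.0367 with the merged shNC pair, and between -0.154 and 0.122 with a library left out. SGSH was between -0.118 and 0.0697, and TFEB between -0.0412 and 0.352, with a library left out. The cause of these shifts was not tested. Depth limited the low members: GPNMB had at least 2019 fragments in every library, while CLN3, CTSF, CTSH and CTSZ had at most 24.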
